A study of Mus musculus with 6 samples.

Results

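Fibronectin and the matricellular proteins form a group of 10 genes examined here by symbol: Fn1, Tnc, Tnxb, Postn, Thbs1, Thbs2, Thbs3, Sparc, Spp1 and Comp. All 10 were found by their Ensembl identifiers among the 45706 genes of the deposited table. RNA sequencing had been done on fibroblasts grown out of collagenase- and trypsin-digested mouse lungs, described as wild-type in the study's design text. The 3 control samples were labelled only as controls, with no vehicle named, and the 3 treated samples received 30 ng/ml of recombinant mouse DKK1 over 24 hours; all 6 were kept in serum-containing medium. DKK1 is a secreted protein that blocks Wnt signalling at the co-receptors LRP5 and LRP6, and the design text gives as purpose the genes it alters in these cells. Age, sex and the number of animals were not given in the labels, so p-values measure the spread between these samples, which may be technical. Bulk RNA cannot tell fewer cells of a type from less RNA per cell.

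Matricellular proteins are secreted into the extracellular matrix but act mainly as signals rather than as load-bearing fibres: they bind cell surface receptors, growth factors and collagens, and many are raised in wound repair and fibrosis. Fibronectin is a structural glycoprotein that cells assemble into fibrils through integrins, and it serves as the scaffold on which collagens and several matricellular proteins are deposited. In injured lung, fibroblasts and myofibroblasts are known sources of fibronectin, tenascin-C and periostin, and macrophages are a known source of osteopontin, the product of Spp1.

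Library totals ranged from 22.6 to 34.7 M counts. The fibroblast markers summed to 9960 to 12086 CPM (a gene's counts scaled to a common library total) in the 6 libraries, and markers of other lung cells were present at lower levels. Most of the fibroblast sum came from the collagen genes Col1a1, Col1a2 and Col3a1. Macrophage markers summed to 423 to 904 CPM, smooth muscle and pericyte markers to 987 to 1237 CPM, epithelial markers to 51.6 to 146 CPM, endothelial markers to 19.8 to 57.9 CPM, mesothelial markers to 12.1 to 37.9 CPM and cartilage and tendon markers to 23.0 to 44.5 CPM. No marker was at 0 in all libraries, but 2 cartilage and tendon markers had under 10 counts in every library. The 3 smooth muscle and pericyte sums were lower with DKK1 (987 to 1057 CPM) than in controls (1195 to 1237 CPM), without overlap. Of these 6 markers, 1 fell in the unpaired edgeR fit and 5 fell with the replicate number as a block (the paired fit below), and 0 rose in either, where the shares of all genes tested that fell were 0.198% and 4.46%. The marker that fell unpaired was Myh11, smooth muscle myosin heavy chain, from 336 ± 1.99 to 274 ± 2.27 CPM (SD, n = 3 each), its log2 fold change being -0.30 (edgeR adjusted p = 0.00387, SE 0.03). The part of these cells in the results below was not tested.

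With samples taken as unpaired, 0 of the 10 genes passed edgeR's quasi-likelihood test at an adjusted p under 0.05, against 0.895% of the 14635 genes tested (0.697% higher and 0.198% lower). At an unadjusted p under 0.05 there were 4, Tnc, Fn1, Spp1 and Sparc, where the share of all genes was 10.6%. DESeq2 called 1, Tnc (2.04% of the genes it tested), and limma-voom called 0 (0.888%). Samples that carry the same replicate number in both groups deviated together, so the replicate number was also fitted as a block. The block was thus chosen from these same data, and samples of different numbers were not set beside them. In this paired fit 6 of the 10 genes passed: Tnc, Spp1, Tnxb and Thbs2 rose and Fn1 and Sparc fell. The share of all genes called in the paired fit was 9.42% (4.96% higher and 4.46% lower), and among genes averaging 10 CPM or more it was 12.9%. DESeq2 with the block called 3, Tnc, Spp1 and Sparc, against 3.65% of its tested genes. Postn, Thbs1, Thbs3 and Comp passed neither edgeR fit. The median log2 fold change was 0.08 over the 10 genes and -0.0009 over all genes tested.

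**Figure D1:**
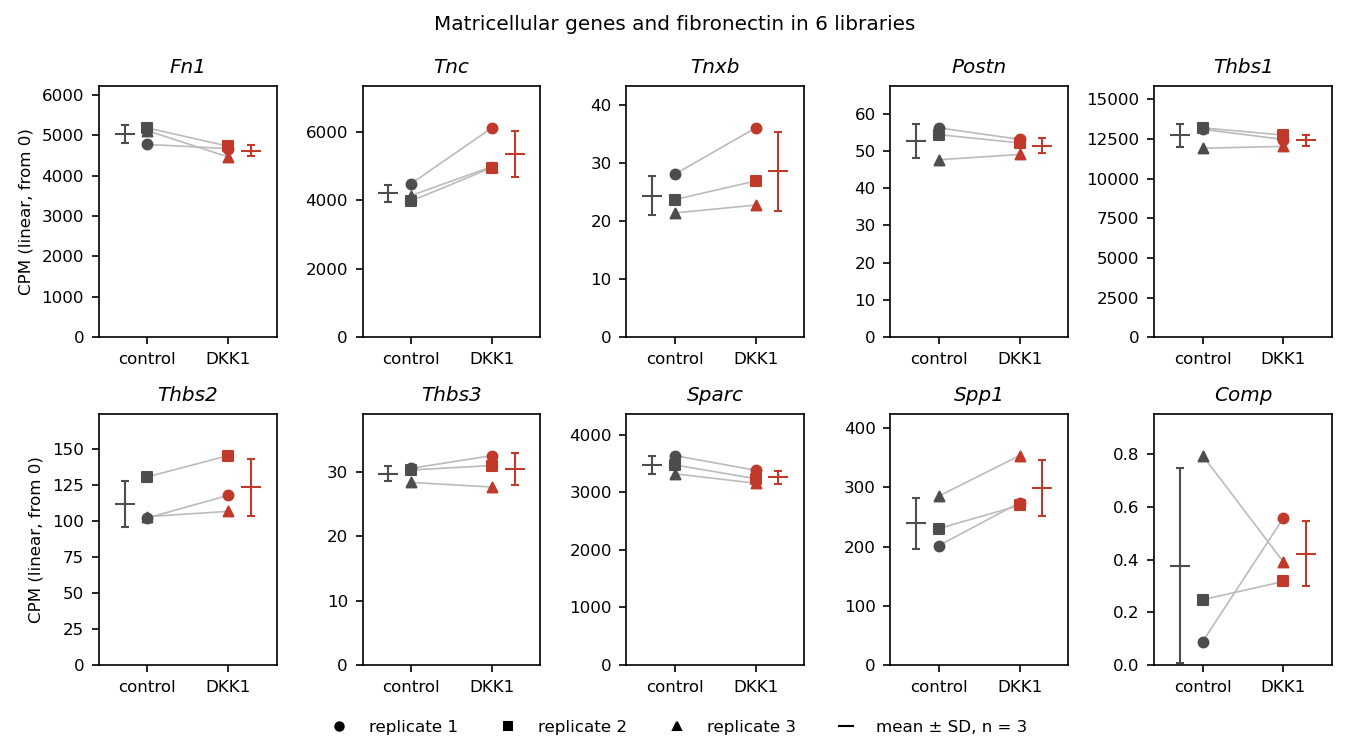
Level of each gene in CPM (vertical axis, linear from 0) in the 3 control (grey) and 3 DKK1 (red) libraries; lines join samples of the same replicate number, and bars show the mean and SD of 3 libraries. Tnc and Fn1 are the genes whose groups do not overlap, and Tnc, Tnxb, Thbs2 and Spp1 are higher and Fn1 and Sparc lower with DKK1 in all 3 pairs.

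The sequences upstream of Tnc, Spp1 and Sparc are shown because these 3 genes passed the paired fit under both edgeR and DESeq2. Each is the 250 bases before the RefSeq start site (assembly GRCm38.p6), 5′ to 3′ on the gene's own strand, at chr4:64047016-64047265 (minus strand) for Tnc, chr5:104434861-104435110 (plus strand) for Spp1 and chr11:55420081-55420330 (minus strand) for Sparc. The Sparc window lies inside the gene as GENCODE annotates it, so it is upstream of the RefSeq start only. Capitals mark matches on either strand to any of 3 motifs: the TATA box (TATAAA), the AP-1 motif (TGANTCA) and the TCF/LEF motif (TCAAAG; these are the factors through which Wnt signals act).
Tnc: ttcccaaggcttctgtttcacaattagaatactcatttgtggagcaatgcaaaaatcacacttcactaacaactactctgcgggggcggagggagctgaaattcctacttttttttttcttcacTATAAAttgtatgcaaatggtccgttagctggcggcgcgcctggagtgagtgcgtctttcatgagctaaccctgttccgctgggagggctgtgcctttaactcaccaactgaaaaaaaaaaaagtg
Spp1: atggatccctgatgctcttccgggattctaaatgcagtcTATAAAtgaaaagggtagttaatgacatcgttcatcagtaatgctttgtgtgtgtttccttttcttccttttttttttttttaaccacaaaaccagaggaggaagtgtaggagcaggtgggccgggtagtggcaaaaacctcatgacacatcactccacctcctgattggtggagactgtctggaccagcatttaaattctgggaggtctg
Sparc: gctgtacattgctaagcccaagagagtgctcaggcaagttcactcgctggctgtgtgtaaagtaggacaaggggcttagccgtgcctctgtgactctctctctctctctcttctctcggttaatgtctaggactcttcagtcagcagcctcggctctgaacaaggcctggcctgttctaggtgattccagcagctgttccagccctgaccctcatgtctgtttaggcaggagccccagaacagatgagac
Both Tnc and Spp1 held TATAAA, from -126 to -121 and from -211 to -206 relative to the start site, and Sparc held none of the 3. TATAAA was present in 12.4% of the 32851 upstream windows of the same length in the table. Of the 10 genes, 7 had a window. Among the other four, Postn held TATAAA from -26 to -21 and Thbs2 held it on the opposite strand from -126 to -121. Tnxb held the AP-1 motif, which reads nearly the same on both strands, from -55 to -49, and Thbs3 held TCAAAG on the opposite strand from -197 to -192. TGANTCA was found in 6.75% and TCAAAG in 13.8% of all windows. These are matches of letters only; fibronectin, Thbs1 and Comp were not searched.

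Levels per transcript length, scaled within each library to TPM (counts per kilobase of transcript, scaled to the same sum in every library), set the baseline of the culture. Thbs1 stood highest in control cells at 5540 ± 342 TPM (SD, n = 3), rank 7 among the 45143 genes with an annotated length. Sparc followed at 3841 ± 193 TPM (rank 16). Fn1 and Tnc came next at 1535 ± 64.7 and 1505 ± 94.8 TPM, and their control ranges, 1464 to 1589 and 1430 to 1611 TPM, overlapped. Spp1 was at 403 ± 69.3 TPM. Thbs2 at 48.2 ± 7.13 and Postn at 41.8 ± 3.80 TPM overlapped narrowly, the lowest Thbs2 library being at 44.1 and the highest Postn library at 44.7 TPM. Thbs3 at 23.7 ± 1.08, Tnxb at 5.08 ± 0.728 and Comp at 0.395 ± 0.386 TPM closed the order. Periostin, often used as a marker of activated lung fibroblasts, was thus far below tenascin-C and fibronectin in these cultures. The order used the longest coding transcript of each gene; with the median length of the coding transcripts, Sparc (4143 TPM) came before Thbs1 (3468 TPM) and the rest of the order was unchanged. The 10 genes together took 2.59% ± 0.0806 of all counts in control and 2.62% ± 0.0976 in DKK1 libraries (SD, n = 3 each).

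**Figure D2:**
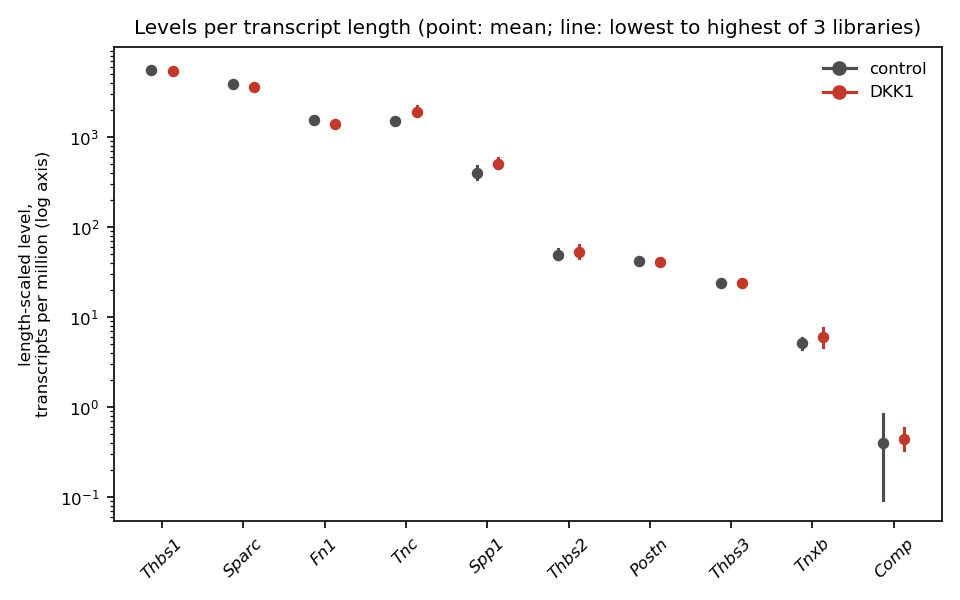
Levels of the 10 genes in TPM (log axis) in control (grey) and DKK1 (red) libraries; points are means and lines run from the lowest to the highest of 3 libraries. The genes span from Thbs1 at 5540 to Comp at 0.395 TPM in control cells, and in DKK1 libraries Tnc (1909 TPM) lies above Fn1 (1406 TPM).

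Fibronectin (Fn1, ENSMUSG00000026193, chr1:71585520-71653200, minus strand, GRCm38) was measured at 4773, 5182 and 5114 CPM in control replicates 1 to 3 and at 4668, 4728 and 4463 CPM in DKK1 replicates 1 to 3. All DKK1 values lay under all control values, with a narrow gap in the first pair. Across the 10 genes the groups did not overlap for 2, Fn1 and Tnc, against 16.3% of all genes tested (8.55% higher and 7.74% lower). The log2 fold change of Fn1 was -0.13 (edgeR adjusted p = 0.279, SE 0.04, 95% interval -0.22 to -0.03), a difference of -8.34%. In the paired fit Fn1 fell, its log2 fold change being -0.13 (edgeR adjusted p = 0.00398, SE 0.02). Removing the trend of each library against GC content and length moved the paired value to -0.08 (edgeR adjusted p = 0.0311). The paired call was lost without replicate 2 (edgeR adjusted p = 0.108) and without replicate 3 (edgeR adjusted p = 0.0558). Splice forms of fibronectin, such as those that include the extra domains linked to wound repair, are not separated in values per gene.

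Tenascin-C (Tnc, ENSMUSG00000028364, chr4:63959785-64047015, minus strand), a large multi-armed glycoprotein made during development and after injury and able to signal through TLR4 and integrins, was measured at 4491, 3985 and 4144 CPM in control replicates 1 to 3 and 6125, 4960 and 4990 CPM in DKK1 replicates 1 to 3. Every DKK1 library lay above every control library, and replicate 1 was the highest of its group in both. Its log2 fold change was 0.34 (edgeR adjusted p = 0.131, SE 0.08, 95% interval 0.16 to 0.53), that is 26.9% higher in DKK1-treated cells. In the paired fit Tnc rose by 0.34 on the log2 scale (edgeR adjusted p = 1.81e-06, SE 0.03, 95% interval 0.28 to 0.39). In the 3 paired fits that left out 1 pair, the log2 fold change of Tnc ran from 0.29 to 0.38. All 3 called it, but few libraries remain there to estimate the spread. Without replicate 1 the edgeR adjusted p was as small as 8.31e-63, so these calls carry little weight.

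Tenascin-X (Tnxb, ENSMUSG00000033327, chr17:34670535-34719815, plus strand), which organises collagen fibrils and whose loss in humans causes a form of Ehlers-Danlos syndrome, was measured at 28.1, 23.7 and 21.4 CPM in control replicates and 36.1, 26.9 and 22.8 CPM in DKK1 replicates. The groups overlapped, and in both replicate 1 was the highest and replicate 3 the lowest. On the log2 scale DKK1 and control differed by 0.23 (edgeR adjusted p = 0.705, SE 0.16), a value that was 0.026 without DKK1 replicate 1, 0.14 without control replicate 3 and 0.36 without DKK1 replicate 3. In the paired fit Tnxb rose by 0.22 on the log2 scale (edgeR adjusted p = 0.0257, SE 0.06), and by pair the difference was 0.36, 0.17 and 0.09 on the log2 scale. The call was lost without replicate 1 (log2 fold change 0.14, edgeR adjusted p = 0.242) and without replicate 2 (0.24, edgeR adjusted p = 0.138).

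Osteopontin (Spp1, ENSMUSG00000029304, chr5:104435118-104441050, plus strand), a phosphorylated secreted protein that binds alpha-v integrins and CD44, stood at 202, 230 and 285 CPM in control replicates and at 274, 270 and 354 CPM in DKK1 replicates. The groups overlapped, since control replicate 3 was above DKK1 replicates 1 and 2, while each DKK1 sample was above the control of its own number. The log2 fold change was 0.32 (edgeR adjusted p = 0.451, SE 0.13, 95% interval 0.01 to 0.62), and it was 0.18 without DKK1 replicate 3 and 0.21 without control replicate 1. In the paired fit Spp1 rose by 0.32 (edgeR adjusted p = 2.66e-05, SE 0.03, 95% interval 0.25 to 0.39). In the 3 paired fits that left out 1 pair, its log2 fold change ran from 0.26 to 0.37. Spp1 was called in each, though few libraries remain there to estimate the spread. The summed macrophage markers were 423, 490 and 846 CPM in control replicates and 483, 522 and 904 CPM in DKK1 replicates, so that replicate 3 was the highest of its group, as it was for Spp1. This was not particular to macrophage markers: the epithelial sums were 56.8, 59.9 and 146 CPM in control and 57.9, 51.6 and 146 CPM in DKK1 replicates, and replicate 3 was also the highest of both groups for the endothelial and mesothelial sums. Most of the macrophage sum came from 1 gene, Lyz2. It averaged 479 ± 190 CPM over controls and 501 ± 193 CPM over treated samples (SD, n = 3 each). The sum therefore says little about the other macrophage markers. Of the 10 macrophage markers, 1 (Cd14) rose in the unpaired fit, and in the paired fit 4 rose and 3 fell. Marco went from 6.38 ± 3.64 to 20.1 ± 8.01 CPM and Itgam from 14.9 ± 4.94 to 31.5 ± 10.2 CPM, while Mrc1 went from 20.2 ± 7.56 to 14.9 ± 5.52 CPM and Csf1r from 24.4 ± 8.94 to 20.2 ± 4.36 CPM (SD, n = 3 each). The part of these cells in the Spp1 result was not tested.

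Spp1 had the widest range of log2 CPM over the 6 libraries, 0.80, among the 9 of the 10 genes that averaged 10 CPM or more. The 3 genes whose centred log2 CPM lay closest to it were Slc7a2, a carrier of cationic amino acids, Abcc4, an exporter of cyclic nucleotides and prostaglandins, and Plac8. Their root mean square distances over 6 libraries were 0.0723, 0.0770 and 0.0904 on the log2 scale, where the median over the 9222 candidates was 0.258. These 3 were picked as the nearest, so lying under the median follows from the choice.

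The thrombospondins fall into the trimeric Thbs1 and Thbs2 and the pentameric group to which Thbs3 and Comp belong. Thrombospondin 1 (Thbs1, ENSMUSG00000040152, chr2:118111876-118127133, plus strand), a ligand of CD47 and CD36 that can activate latent TGF-beta, was measured at 13114, 13204 and 11917 CPM in control replicates and 12469, 12749 and 12036 CPM in DKK1 replicates. The groups overlapped and the third pair ran the other way from the first and second. Its log2 fold change was -0.04 (edgeR adjusted p = 0.826, SE 0.05, 95% interval -0.15 to 0.06; paired -0.04, interval -0.08 to -0.004, edgeR adjusted p = 0.185).

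Thrombospondin 2 (Thbs2, ENSMUSG00000023885, chr17:14665500-14694235, minus strand), an inhibitor of angiogenesis that also limits matrix metalloproteinase 2, stood at 102, 130.5 and 103 CPM in control replicates and 118, 145 and 107 CPM in DKK1 replicates. Replicate 2 was the highest in both groups, and the groups overlapped. Unpaired, the log2 fold change came to 0.14 (edgeR adjusted p = 0.792, SE 0.13), and in the paired fit Thbs2 rose by 0.13 (edgeR adjusted p = 0.0149, SE 0.03). The unpaired value was -0.007 without DKK1 replicate 2 (edgeR adjusted p = 0.995), 0.07 without control replicate 1 or 3, 0.27 without control replicate 2 and 0.23 without DKK1 replicate 3. The paired call was lost without replicate 1 (edgeR adjusted p = 0.0503) and without replicate 2 (edgeR adjusted p = 0.186).

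Thrombospondin 3 (Thbs3, ENSMUSG00000028047, chr3:89215180-89226837, plus strand) was found at 30.6, 30.3 and 28.4 CPM in control and 32.6, 31.0 and 27.7 CPM in DKK1 replicates. Its log2 fold change was 0.03 (edgeR adjusted p = 0.946, SE 0.07, 95% interval -0.13 to 0.19; paired edgeR adjusted p = 0.812). It overlaps Mtx1 on the opposite strand, which had 104% of its mean count, and whether the counting used strand is not given in the sources used here, so its level is uncertain. Genes that overlap Fn1, Tnc, Tnxb and Thbs1 on the opposite strand and Spp1 on the same strand had at most 0.463% of the mean count of the gene they overlap. Cartilage oligomeric matrix protein (Comp, ENSMUSG00000031849, chr8:70373558-70382066, plus strand), known from cartilage and tendon and also from fibrotic skin and lung, had 2, 7 and 18 counts in control and 16, 11 and 9 counts in DKK1 libraries. Control replicate 1 was under the floor of 3 counts. The log2 fold change of 0.17 had a 95% interval from -1.27 to 1.61 (edgeR adjusted p = 0.968), and the libraries of each group spread too widely, at these low counts, to tell whether Comp rose or fell.

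SPARC (ENSMUSG00000018593, chr11:55394500-55423183, minus strand), a collagen-binding protein needed for proper collagen fibril assembly, was measured at 3635, 3473 and 3318 CPM in control replicates and 3380, 3235 and 3155 CPM in DKK1 replicates. The groups overlapped by 1 library, replicate 1 was the highest and replicate 3 the lowest in both, and each DKK1 sample was lower than its partner. The log2 fold change of Sparc was -0.10 (edgeR adjusted p = 0.466, SE 0.04, 95% interval -0.20 to -0.0009), and it was -0.065 without control replicate 1. In the paired fit Sparc fell, its log2 fold change being -0.10 (edgeR adjusted p = 0.00109, SE 0.02), a difference of -6.61%. The call was lost without replicate 2 (edgeR adjusted p = 0.0665).

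Periostin (Postn, ENSMUSG00000027750, chr3:54361109-54391037, plus strand), a ligand of alpha-v integrins secreted by activated fibroblasts, stood at 56.2, 54.4 and 47.6 CPM in control and 53.1, 52.1 and 49.0 CPM in DKK1 replicates. The groups overlapped and the pairs did not all run the same way. The log2 fold change was -0.04 (edgeR adjusted p = 0.902, SE 0.07, 95% interval -0.19 to 0.11; paired interval -0.13 to 0.04, edgeR adjusted p = 0.596). Of the 10 genes, 6 moved the same way in all 3 pairs, 4 higher and 2 lower, against 41.7% of all genes tested (20.8% in each direction).

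**Figure D3:**
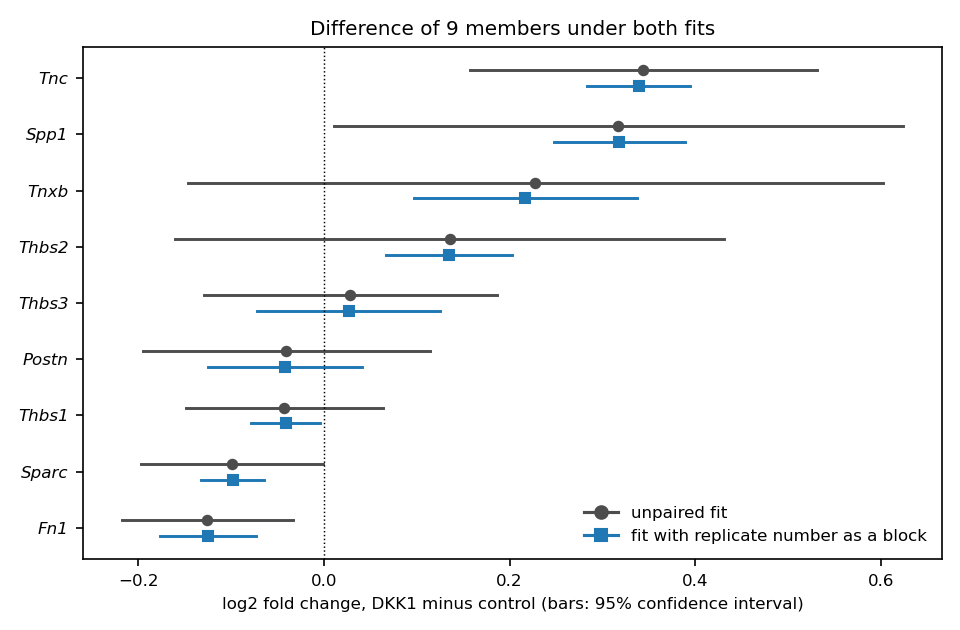
Log2 fold change of DKK1 minus control for 9 genes (horizontal axis; Comp, whose interval runs from -1.27 to 1.61, is left out) with 95% confidence intervals, from the unpaired fit (grey circles) and the fit with the replicate number as a block (blue squares). The values are nearly the same in both fits, while the paired intervals are narrower, for Spp1 from 0.25 to 0.39 in place of 0.01 to 0.62.

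Other genes of the same biology were taken from 5 lists, whose counts stand against 0.697% higher and 0.198% lower among all genes tested in the unpaired fit and 4.96% higher and 4.46% lower in the paired fit. Of 19 receptors of these proteins, all tested, 1 rose and 1 fell in the unpaired fit (paired fit, 4 rose and 3 fell; median log2 fold change -0.02). Cd47, the thrombospondin 1 receptor that also gives phagocytes a signal not to engulf the cell, was at 79.5, 80.5 and 74.2 CPM in control replicates and 101, 96.0 and 96.2 CPM in DKK1 replicates. All DKK1 values were above all control values, and Cd47 rose by 0.32 on the log2 scale (edgeR adjusted p = 0.0200, SE 0.05). Itga8, whose integrin with beta-1 binds fibronectin, tenascin-C and osteopontin, was at 204, 178 and 175 CPM in control and 147, 133 and 139 CPM in DKK1 replicates. It fell by 0.42 on the log2 scale (edgeR adjusted p = 0.0278, SE 0.06); genes annotated on either strand overlap it.

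Of 18 TGF-beta ligands, receptors and target genes, 0 rose and 1 fell in the unpaired edgeR fit (paired, 5 rose and 3 fell; median 0.03). TGF-beta is a main inducer of fibronectin, tenascin-C, periostin and thrombospondin 1 in fibroblasts. The gene that fell was the ligand Tgfb3, from 381, 329 and 376 CPM in control to 277, 262 and 294 CPM in DKK1 replicates, with no overlap, its log2 fold change being -0.39 (edgeR adjusted p = 0.0285, SE 0.06); it overlaps genes annotated on the opposite strand. Of 16 enzymes that cleave, phosphorylate or crosslink these proteins, 1 rose and 0 fell (paired, 5 rose and 7 fell; median -0.007). Mmp3 (stromelysin 1), which cleaves fibronectin, tenascin-C, SPARC and osteopontin, went from 19.9, 17.1 and 15.3 CPM in control to 47.3, 37.2 and 34.3 CPM in DKK1 replicates, a rise of 1.18 on the log2 scale (edgeR adjusted p = 0.00742, SE 0.13).

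Of 20 matrix partners, 0 rose and 2 fell in the unpaired edgeR fit (paired, 2 rose and 14 fell; median -0.10). Elastin (Eln) went from 117, 153 and 113 CPM in control to 59.2, 69.6 and 64.5 CPM in DKK1 replicates, and Col6a3, a chain of the microfibrillar collagen VI, from 693, 692 and 682 to 518, 527 and 517 CPM. Their log2 fold changes were -0.995 (edgeR adjusted p = 0.00760, SE 0.12) and -0.41 (edgeR adjusted p = 0.00154, SE 0.03). An annotated gene on the other strand overlaps Eln, and one on the same strand overlaps Col6a3. Of 23 further matricellular genes, 17 were tested and 0 were called in the unpaired edgeR fit (paired, 2 rose and 3 fell; median -0.11). In the paired fit Spon2, a secreted pattern-recognition protein, rose by 0.60 (edgeR adjusted p = 5.40e-05, SE 0.07) and Ccn1 by 0.10 (edgeR adjusted p = 0.00418, SE 0.02). Mgp, an inhibitor of calcification, fell by 0.26 (edgeR adjusted p = 1.76e-05, SE 0.03) and Ccn4 by 0.19 (edgeR adjusted p = 2.42e-05, SE 0.02). Unpaired edgeR adjusted p-values of these 4 genes were 0.0918, 0.564, 0.754 and 0.677. When 1 sample at a time was left out of the unpaired fit, Col6a3 was called in all 6 fits. Eln was not called without DKK1 replicate 1 (edgeR adjusted p = 0.0556), nor Mmp3 without control replicate 2 (edgeR adjusted p = 0.0538). The calls of Cd47 and Tgfb3 were lost in 4 of these 6 fits and that of Itga8 in 5, with edgeR adjusted p-values of up to 0.0986, 0.148 and 0.113. Cd47 kept its call without control replicate 3 or DKK1 replicate 3, Tgfb3 without control replicate 2 or DKK1 replicate 3, and Itga8 without control replicate 3.

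**Figure D4:**
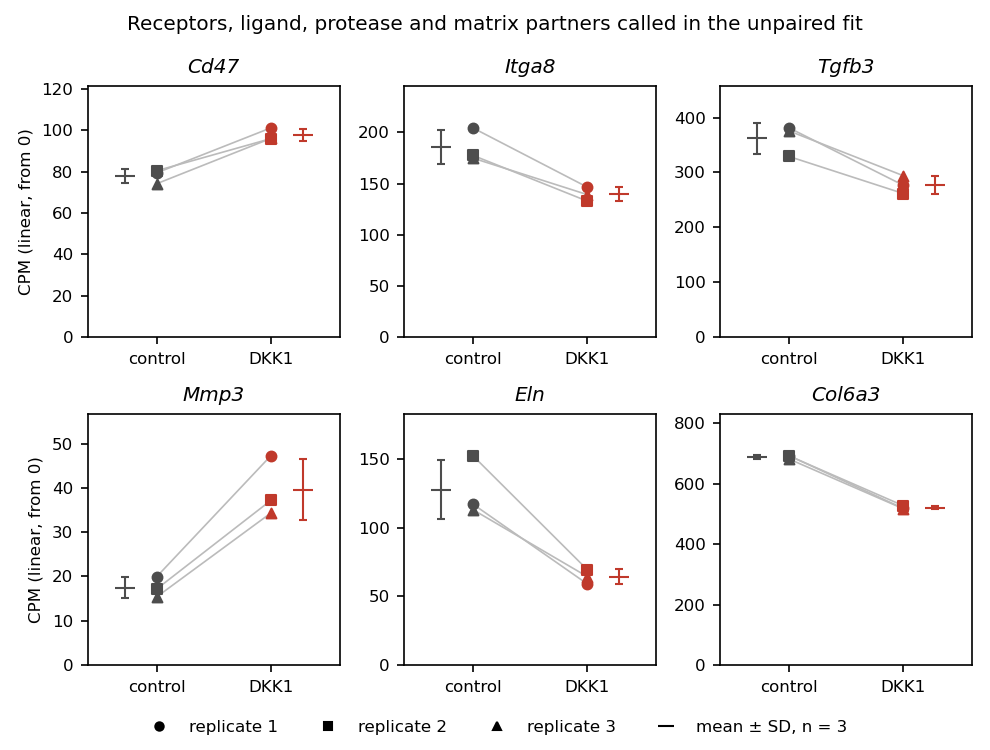
CPM (vertical axes, linear from 0) of 6 related genes that passed the unpaired test, in control (grey) and DKK1 (red) libraries, with lines joining samples of the same replicate number and bars showing the mean and SD of 3 libraries. Cd47 and Mmp3 are higher and Itga8, Tgfb3, Eln and Col6a3 lower in every DKK1 library than in any control library.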

How the data were processed

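RNA of 3 control and 3 DKK1-treated samples was measured. The authors deposited 1 table of expected counts per gene, unscaled, with 1 column per sample. STAR, RSEM, edgeR 4.2.1 and the builds GRCm38 and mm10 are named in the submitters' processing notes; the annotation release, strandedness and filters are not given in the sources used here. RSEM divides reads that match several genes by likelihood, so counts of Spp1, Thbs3 and Tnc were not whole (by 0.005 or more) in all 6 libraries. Symbols were found for 98.8% of identifiers; positions, overlaps and lengths came from GENCODE M21 (GRCm38), which holds 98.7% of the table's transcripts.

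Rounded expected counts went into edgeR 4.0.16 under R 4.3.3 (filterByExpr with a minimum count of 10, TMM, glmQLFTest, two-sided, Benjamini-Hochberg over 14635 genes, called under 0.05). Limma 3.58.1 and DESeq2 1.42.0 served as alternatives. The edgeR fits were also run on simulated counts built with effects shared by same-numbered samples. That simulation assumed the pairing, so it could not check it, and its outcome is not reported here. SE is the log2 fold change over the root of F. CPM uses library totals; overlap of groups and pair differences use TMM-scaled CPM. The floor of 3 counts is 0.0864 to 0.133 CPM and covers counting error only. Replicate numbers come from the sample titles, which leave their meaning open; deviations of same-numbered samples correlated at 0.335 to 0.499 across genes in all 3 pairs, so paired values are given beside the unpaired ones. The 10 genes and the lists were chosen with earlier results of these data known. All 10 genes were named; of each list, the genes called unpaired, or else the extremes of those called in the paired fit. The genes nearest to Spp1 were sought among those with at least 10 CPM. The RefSeq promoter table (GRCm38.p6) matched 7 of the 10 genes.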

Additional observations from a re-analysis of the deposited data

How the results depend on the processing

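The unpaired edgeR count of 131 genes became 1379 with the replicate block, 329 without a low-count filter, 289 with DESeq2, 551 with DESeq2 and the block, and 1278 with the block after removal of the GC and length trend; the other unpaired fits with all samples called 126 to 135. Leaving out 1 sample gave 36 to 139 calls, and the block without 1 pair 612, 1059 and 1312. Of the 10 genes, 0 were called unpaired, 6 with the replicate block, 6 with the block after removal of that trend, 3 with DESeq2 and the block (Sparc, Spp1 and Tnc), and 1 (Tnc) both with DESeq2 and without a low-count filter. The block without 1 pair called 2, 4 or 5 of the 10, with Tnc and Spp1 in all 3 such fits. Few libraries remain in these paired fits to estimate the spread, so their calls carry little weight. Leaving out 1 sample called 0 in each of 6 unpaired fits. The sign changed only for values not called: Postn was 0.0063 without control replicate 1; Thbs2 was -0.0066 without DKK1 replicate 2; Thbs3 was -0.010 without control replicate 3, -0.023 without DKK1 replicate 1 and -0.0026 with the block without replicate 1; Comp was -0.27 without control replicate 1, -0.076 without control replicate 2 and -0.42 with the block without replicate 1. Over the 6 fits that left out 1 sample the values ran up to 0.27 for Thbs2, 0.091 for Thbs3 and 1.22 for Comp (5 fits), and down to -0.11 for Postn. The cause was not tested. Comp was not tested where 10 counts were required in every sample, without DKK1 replicate 1, or with the block without replicate 3. DESeq2 without the block gave Comp no adjusted p. Fn1, Tnc, Tnxb, Thbs1, Sparc and Spp1 kept their sign in all alternatives run; over the fits that left out 1 sample they ran from -0.16 to -0.099 for Fn1, 0.24 to 0.40 for Tnc, 0.026 to 0.36 for Tnxb, -0.096 to -0.014 for Thbs1, -0.14 to -0.065 for Sparc and 0.18 to 0.45 for Spp1.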

Other observations

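Per transcript length, the ratio of Tnc to Fn1 was 1.10, 0.90 and 0.95 in control replicates 1 to 3 and 1.54, 1.23 and 1.31 in DKK1 replicates 1 to 3. All DKK1 ratios lay above all control ratios. This ratio was chosen after the values of both genes were seen and carries no test. The ratio of Thbs1 to Thbs2, the trimeric thrombospondins, was 130, 102 and 117 in control and 107, 88.4 and 114 in DKK1 replicates, lower with DKK1 in each of the 3 pairs, with overlapping groups.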
